A study of Arabidopsis thaliana with 32 samples.

Results

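The transcript levels of whole Arabidopsis thaliana roots were compared between seedlings of 8 days and seedlings of 4 days, in the wild-type accession Col-0 grown on the ground. The members are all loci that the authors listed as different between these ages, with the ratio taken as the 8-day group value over the 4-day group value. There were 2235 such loci, of 4802 distinct loci listed in any of the 12 comparison tables of the series. Of the 19905 loci tested, a number worked back from the deposited p-values and q-values, 11.2% were listed. Higher at 8 days were 1133 loci (5.69% of those tested), and lower at 8 days were 1102 (5.54%).

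The series set roots grown on the International Space Station against ground controls, for Col-0 and for a genotype labelled Sku6. Every combination of site, genotype and age (4 or 8 days) is a group of 4 samples, 8 groups in all. The 2 groups compared here are ground 4-day Col-0 and ground 8-day Col-0. Both grew on upright plates of phytagel with 0.5x MS medium under light, in a ground copy of the station's Vegetable Production System that replayed the station's temperature, carbon dioxide and lighting after a 48-hour delay. Age counts from the unwrapping of dark, cold-stored plates. Seedlings were fixed in RNAlater and the roots were cut off after thawing. A 4-day sample pooled 5 to 8 roots and an 8-day sample 2 to 3 roots, so age and pool size cannot be told apart. The 3 other age comparisons (flight Col-0, ground Sku6 and flight Sku6, each 8 against 4 days) share no sample with this one and are used below only for the same loci.

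Each locus has a single value per group in FPKM, a level scaled to transcript length and library size, which the authors computed over the 4 samples. No spread between samples accompanies it, and the number of reads behind it is unknown. A locus counted as changed ("rose" or "fell") when the authors' Cuffdiff test gave a q-value of at most 0.05. The table holds such loci alone, so a gene that is not listed either missed that threshold or was not tested. In a whole root, fewer cells of a type and less RNA per cell cannot be told apart.

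A young root is built by a tip meristem whose daughter cells elongate, differentiate in files and later add lateral roots. Epidermal cells with root hairs take up phosphate, nitrogen and iron. The endodermis first seals its walls with a lignified Casparian strip and then with suberin, a waxy polyester. In older parts of the root a cambium forms between phloem and xylem and thickens the organ.

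Of the 2235 changes 1657 were under 2-fold. The median ratio of the loci that rose was 1.67-fold, and the loci that fell were lower by a median of 1.54-fold. A change of 2-fold or more was seen in 578 loci, of which 353 rose and 225 fell. Changes of 8-fold or more with both groups above 0 numbered 26 upward and 12 downward. The direction went with abundance. Of the 280 loci with a mean level under 5 FPKM, 58.9% were higher at 8 days, against 50.4% of the 806 loci between 20 and 100 FPKM and 36.2% of the 94 loci above 500 FPKM. The annotated genes that rose were shorter, with a median length of 1931 bases against 2376 for those that fell and 2078 for all protein-coding genes. Of the genes that the annotation classes as non-coding RNA and that were listed singly, 16 rose and 3 fell. How many such genes were tested is unknown, so no share can be set beside these counts. IPS1, a non-coding RNA that fell, is classed there as protein-coding and is not among them.

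**Figure D1:**
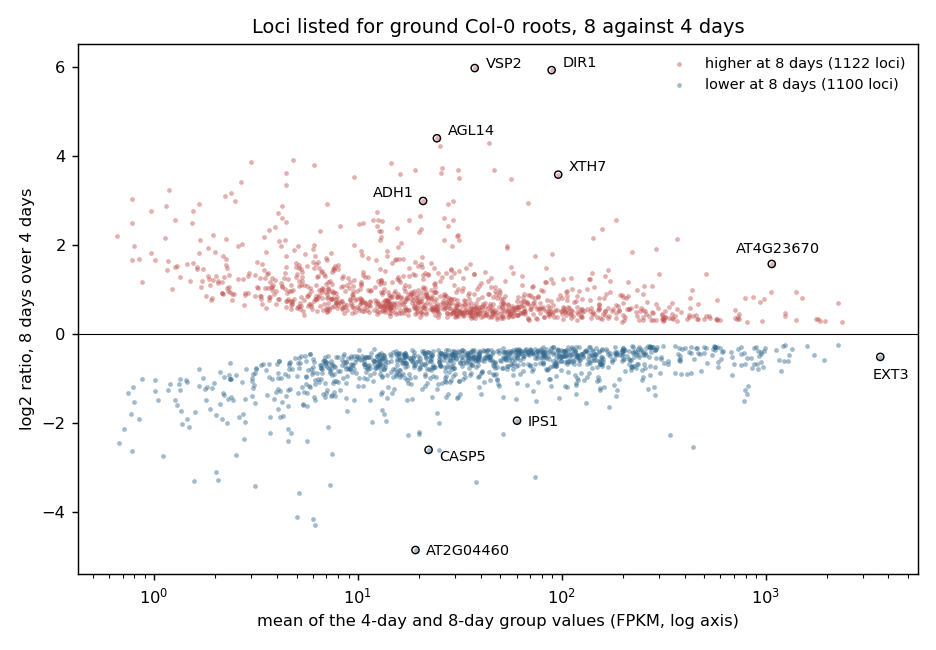
Log2 ratio of the 8-day over the 4-day group value (vertical axis) against the mean of both values in FPKM (horizontal log axis) for the listed loci with both groups above 0, 1 point per locus, with 10 loci named. VSP2 and DIR1 stand near a log2 ratio of 6, and loci of high abundance keep close to 0.

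MicroRNA precursors lay in 2 single-gene loci and in 3 merged loci. The libraries measured the precursor RNA, not the mature 21-base form, and the mature products of 3 precursors are printed here because their known targets also appear among the listed loci or were looked for there. MIR166a (AT2G46685) rose from 2.83 to 9.50 FPKM, a log2 ratio of 1.75. MIR824 (AT4G24415) rose from 8.89 to 17.9 FPKM, a log2 ratio of 1.01. MIR157a (AT1G66783) lies in a locus merged with AT1G66840, which fell from 5.71 to 0.534 FPKM, so the share of either gene in that value is unknown. The capitals mark the seed, bases 2 to 8, and the sequences come from the RefSeq annotation of TAIR10.1. The 6 seeds all differ.
ath-miR166a-3p: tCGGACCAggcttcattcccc
ath-miR166a-5p: gGACTGTTgtctggctcgagg
ath-miR824-5p: tAGACCATttgtgagaaggga
ath-miR824-3p: cCTTCTCAtcgatggtctaga
ath-miR157a-5p: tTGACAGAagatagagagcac
ath-miR157a-3p: gCTCTCTAgccttctgtcatc

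In Arabidopsis the miR156/miR157 family directs cleavage of SPL messenger RNAs, which encode transcription factors of the juvenile-to-adult transition. Of 17 annotated SPL genes, SPL2 and SPL11 were listed, and both rose. That share is close to the 11.2% of all tested loci that were listed in either direction. SPL2 and SPL11 were picked after their values were seen. SPL2 went from 4.05 to 11.1 FPKM, and SPL11 from 4.11 to 10.7 FPKM. Each holds the same 21-base stretch, which matches the reverse complement of ath-miR157a-5p except at the lower-case letter. SPL9, SPL10 and SPL15 hold the identical stretch and were not listed.
SPL2 (chr5:17360757-17360777, minus strand): GTGCTCTCTcTCTTCTGTCAA
SPL11 (chr1:9503618-9503638, plus strand): GTGCTCTCTcTCTTCTGTCAA

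For miR166, whose known targets are the HD-ZIP III leaf and vascular polarity factors, PHV was a listed target, picked after its values were seen. PHV stood at 4.83 FPKM at 4 days and 7.13 FPKM at 8 days. The share of these targets that was listed was not counted. AGL16, the known target of miR824, was not listed. Other precursors sat in merged loci: the locus with MIR160a fell by 0.51 on the log2 scale and the locus with MIR835 rose by 0.59. TCP2 and TCP24, growth regulators that miR319 targets, also rose, TCP2 from 1.65 to 12.4 FPKM and TCP24 from 4.70 to 21.3 FPKM. TCP3 and TCP20 were also listed, at log2 ratios of 1.37 and -0.68. These TCP genes, too, were picked after their values were seen, and the share of the family that was listed was not counted.

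Of the largest ratios, 12 in each direction were taken among single-gene loci with both groups at 1 FPKM or more and the higher at 5 FPKM or more. VSP2 had the highest ratio, from 1.18 to 73.6 FPKM, and its neighbour VSP1 the eighth, from 6.70 to 86.3 FPKM. These acid phosphatase-like proteins are classic jasmonate-responsive products, and as near-identical copies they may share reads. DIR1, a lipid transfer protein of systemic acquired resistance, stood at 2.89 FPKM at 4 days and 175 FPKM at 8 days. AGL14, a MADS-box factor of root growth, rose from 2.22 to 46.6 FPKM. The remainder were mostly enzymes and small secreted proteins. AT1G52820, an oxoglutarate-dependent oxygenase, rose from 4.33 to 83.8 FPKM, and AT4G33720, a CAP-domain protein of the pathogenesis-related type, from 2.57 to 47.9 FPKM. The O-methyltransferase AT1G77520 reached 27.2 FPKM from 1.90, and the berberine-type oxidase AT5G44400 reached 48.3 FPKM from 3.65. AT4G14060, a polyketide cyclase-like protein, GASA6, a gibberellin-regulated peptide, and BGLU7, a beta-glucosidase, reached 57.4, 35.4 and 29.8 FPKM from 4.48, 2.77 and 2.46 FPKM. The acetyl-CoA synthetase ACS completed the 12, at 3.90 and 47.4 FPKM, with a q-value of 0.0485 in the authors' deposited table.

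The steepest falls mixed photosynthetic, endodermal and defence genes. AT2G04460, an uncharacterized protein, dropped from 37.0 to 1.28 FPKM. RBCS1B, a Rubisco small subunit, dropped from 13.4 to 1.27 FPKM. AT1G09310, a DUF538 protein, went from 69.2 to 6.86 FPKM. CASP5, one of the membrane proteins that lay out the Casparian strip, went from 38.1 to 6.27 FPKM. TI1, a trypsin inhibitor of the defensin type, fell from 43.0 to 7.07 FPKM, and the defensin-like genes AT5G33355 and AT1G34047 fell by 2.27 and 2.25 on the log2 scale. AT5G33355 was abundant, at 563 FPKM at 4 days and 116 FPKM at 8 days. AT5G33330 lies nearby and stood at 749 and 128 FPKM. CP1 (a cysteine proteinase), UGE3 (a UDP-galactose epimerase) and AT4G33120 (a methyltransferase) went from 13.0 to 1.99, from 7.66 to 1.45 and from 29.3 to 6.08 FPKM. The bHLH factor AT4G37850, at 9.47 FPKM at 4 days, was 5.27-fold lower at 8 days. Of these 24 genes, DIR1, AT1G52820, GASA6, AT1G09310, CASP5, AT5G33330, UGE3 and AT1G34047 overlap a neighbouring annotated gene, and the library kit does not mark strand.

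Ranked by the change in FPKM itself, the largest rise was that of AT4G23670, a polyketide cyclase-like protein, from 540.2 to 1602 FPKM. Stress and metal-binding proteins were among the 10 largest: GRP9, a glycine-rich protein, went from 966 to 1847 FPKM, the dehydrin AT1G54410 from 1094 to 1906 FPKM, DR4 from 726 to 1396 FPKM, KIN2 from 576 to 1010 FPKM and the metallothionein MT3 from 288 to 732 FPKM. The other entries were short, abundant transcripts with small ratios. AT1G15405, an RNA without a coding sequence and second in this ranking, stood at 1733 and 2782 FPKM, and the ribosomal proteins AT2G43460 and AT1G56045 had log2 ratios of 0.27 and 0.32. SDH8, a subunit of succinate dehydrogenase, had a log2 ratio of 0.47.

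The largest fall in FPKM was that of EXT3, an extensin that cross-links the cell wall, from 4297 to 3000 FPKM. AIR1 and its neighbour AT4G12545, both lipid transfer-like proteins of the root, dropped from 1133 to 506 FPKM and from 1164 to 407 FPKM. The defensin-like AT3G59930 went from 1162 to 454 FPKM. AT5G03545, annotated as expressed on phosphate starvation, went from 1124 to 465 FPKM. Housekeeping genes of high abundance completed the list at smaller ratios. These were the elongation factor AT5G60390, the ADP/ATP carrier AAC1, the calcium pump ECA1 and the glycolytic enzyme GAPC2, with log2 ratios between -0.61 and -0.48.

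Genes of known roles were counted in 26 lists with 542 genes. A gene counted where its own locus was listed, and genes in merged loci were counted apart. The shares below are of all members of a list, whether or not the authors tested them, and stand beside the 5.69% higher and 5.54% lower of all tested loci. The lists are not matched to the tested loci in abundance.

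**Figure D2:**
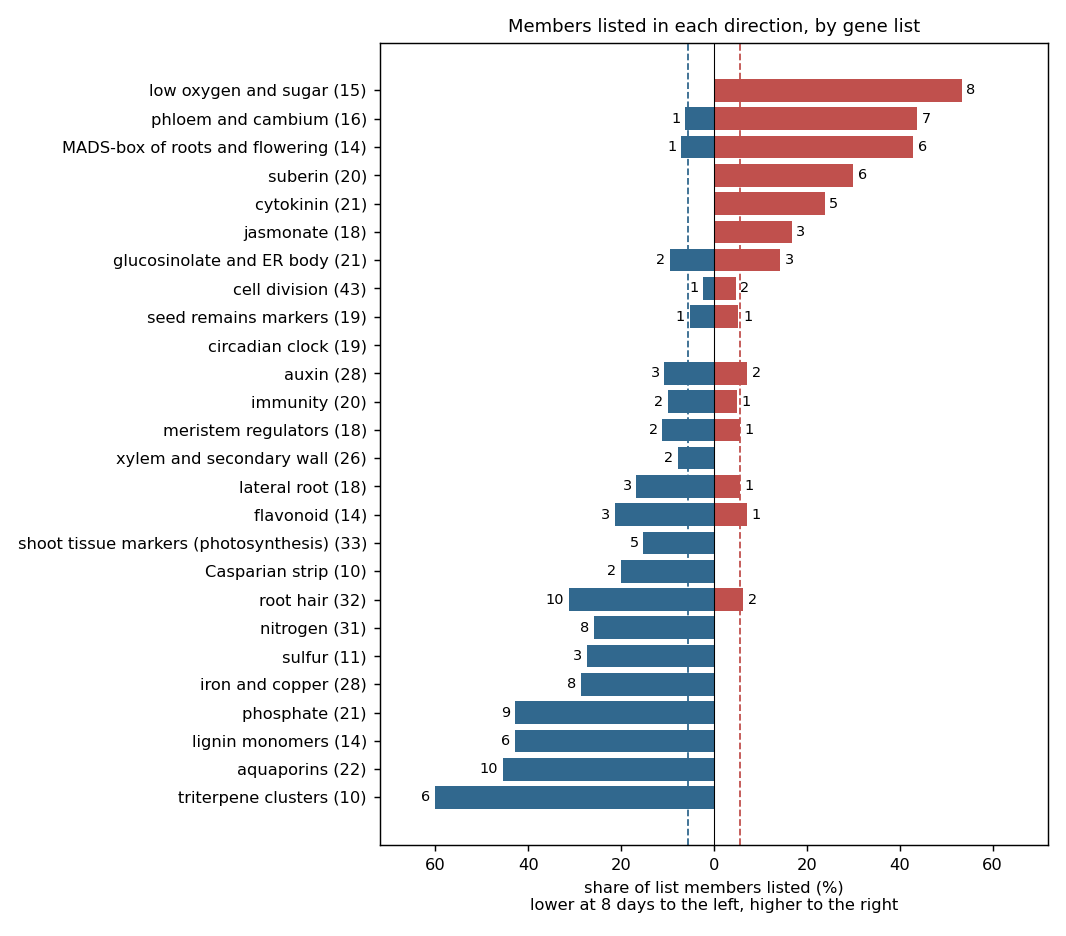
Share of the members of each gene list that was listed lower (left) or higher (right) at 8 days, in percent, with the count at the bar's end and the number of members in brackets. Dashed lines mark the shares over all tested loci, 5.54% lower and 5.69% higher; the low oxygen, phloem and MADS-box lists extend farthest to the right, and the triterpene, aquaporin, lignin and phosphate lists farthest to the left.

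Phosphate genes fell. Of 21 members 9 were listed, all lower at 8 days, with a median log2 ratio of -1.19, against -0.62 for all loci that fell. Among the transporters, PHT1;4 went from 39.8 to 9.87 FPKM. PHT1;1, the main root uptake carrier, went from 264 to 110 FPKM, though reads may be shared with its close copies. PHO1;H1, of the family that loads phosphate into the xylem, went from 19.5 to 8.52 FPKM. The starvation markers moved with them: IPS1, a non-coding RNA that sequesters miR399, fell from 95.8 to 24.8 FPKM, and SPX1, a phosphate sensor protein, from 87.0 to 31.6 FPKM. PHF1, needed to export PHT1 proteins from the endoplasmic reticulum, went from 29.3 to 16.6 FPKM. The sulfolipid enzymes SQD1 and SQD2, which replace phospholipids, and the kinase PPCK1 had log2 ratios of -0.48, -0.90 and -0.69. PHO1 lies in a merged locus that fell from 292 to 173 FPKM.

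Nitrogen genes changed in the same direction, with 8 of 31 members listed and all lower. NRT2.1, the high-affinity nitrate transporter, stood at 4.38 FPKM at 4 days and 0.662 FPKM at 8 days. Its partner protein NRT3.1 went from 102 to 42.3 FPKM. The ammonium transporters AMT1;1 and AMT1;3 fell from 25.7 to 9.24 FPKM and from 56.4 to 26.6 FPKM. Glutamine synthetases, which assimilate ammonium, fell less: GLN1;2, the most abundant, went from 556 to 300 FPKM, while GLN2, GLN1;1 and GLN1;3 had log2 ratios of -0.73, -0.59 and -0.57. In the sulfur list 3 of 11 members were lower, LSU1 (19.6 to 10.0 FPKM) and the sulfate-reducing enzymes APR1 and APR2, whose log2 ratios were -0.38 and -0.40.

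Of 28 iron and copper genes, 8 were listed and all were lower. AT1G47400 and AT1G47395, left out of the list because the annotation does not carry the names given there, were listed and higher, from 39.6 to 63.7 FPKM and from 46.6 to 97.8 FPKM. FIT, the master regulator of iron uptake, was 43.7 FPKM at 4 days and 21.7 FPKM at 8 days. The nicotianamine synthases, whose product chelates iron, fell alongside: NAS1 from 116 to 57.1 FPKM, NAS4 from 36.0 to 17.3 FPKM, and NAS2 in both of its loci, the larger from 67.9 to 30.0 FPKM. NAS copies are close in sequence and reads may be shared. The coumarin pathway enzyme F6'H1 and the exporter PDR9 fell by 0.95 and 0.81 on the log2 scale. FER1, the ferritin that stores iron, fell from 192 to 120 FPKM, and the copper transporter COPT2 from 418 to 336 FPKM. IRT1, the iron transporter, lies in a merged locus that fell from 123 to 54.3 FPKM, and FRO4 and FRO5 in another that fell from 25.7 to 17.6 FPKM.

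Aquaporins, the water channels of plasma membrane (PIP) and vacuole (TIP), fell. Of 22 members 10 were lower and none was higher, and the summed level of those 10 was 6912 FPKM at 4 days and 4345 FPKM at 8 days. TIP2;3 changed most, from 196 to 67.1 FPKM. PIP1;1 went from 895 to 475 FPKM, PIP2;1 from 1083 to 637 FPKM and TIP1;1 from 620 to 347 FPKM. PIP1;2, PIP1;5, PIP2;2, PIP2;3, PIP2;7 and TIP1;2 had log2 ratios between -0.73 and -0.34. TIP2;2 was in a merged locus, which was also lower.

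**Figure D3:**
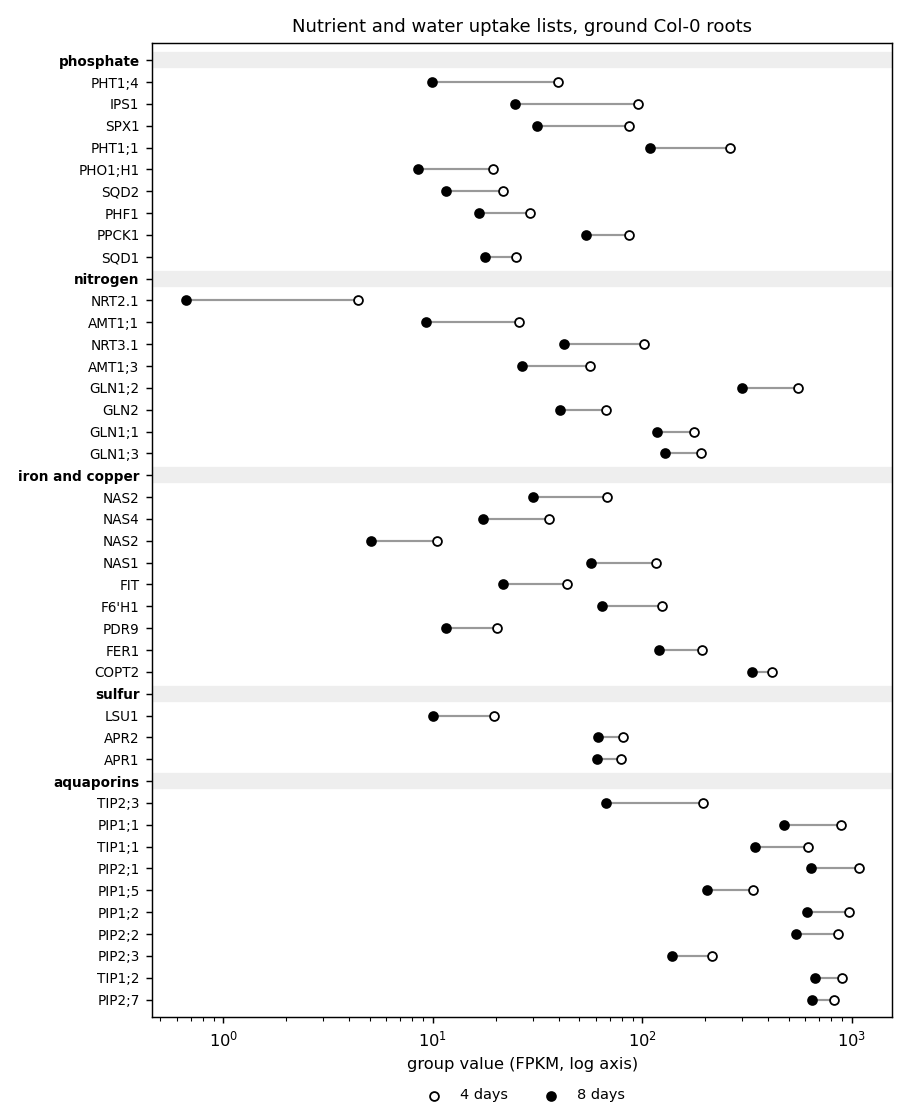
Group values in FPKM (log axis) at 4 days (open circles) and 8 days (filled circles) for every listed single-gene locus of the phosphate, nitrogen, iron and copper, sulfur and aquaporin lists. All filled circles lie to the left of their open circles; NRT2.1 (4.38 and 0.662 FPKM) has the widest gap.

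Root hair genes were mostly lower, 10 of 32 members against 2 higher. The wall proteins COBL9, PRP1 and PRP3 fell, PRP3 from 160 to 74.7 FPKM. EXPA18, a hair-specific expansin, went from 108 to 60.9 FPKM. The transcription factors RSL2 and LRL3, which drive hair growth, fell by 0.77 and 0.60 on the log2 scale, and the hair-linked genes RHS13, RHS18, RHS19 and AGP3 by 0.40 to 0.71. The members that rose were XTH26 (10.9 to 17.6 FPKM) and WER (40.5 to 86.9 FPKM), the MYB factor that specifies hairless epidermal cells. Root-hair and uptake genes were thus measured in both groups, as the label of roots has it.

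Cell wall families, found by annotation wording, split by kind. Of 208 extensins and proline-rich proteins 24 were lower and 7 higher (11.5% and 3.37%). HRGP1 fell from 373 to 159 FPKM, EXT13 from 168 to 65.6 FPKM and EXT10 from 224 to 97.8 FPKM. These repeat-rich genes resemble each other, and reads may be shared among them. Among 65 class III peroxidases, which oxidise wall phenolics, 13 were lower and 4 higher. AT5G64120 went from 45.4 to 17.9 FPKM, whereas AT2G18150 rose from 9.28 to 104 FPKM and AT4G36430 from 21.8 to 85.5 FPKM. Arabinogalactan proteins numbered 8 lower and 2 higher of 57, with AGP30 at 268 and 103 FPKM. Lipid transfer proteins numbered 16 lower and 6 higher of 133.

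Of 34 expansins, which loosen walls, 7 rose and 2 fell; EXPA6 went from 53.0 to 105 FPKM, EXPA4 from 298 to 440 FPKM and the expansin-like EXLA3 from 2.19 to 10.9 FPKM. Of 29 xyloglucan endotransglucosylases, which cut and rejoin wall glucans, 4 rose and 8 fell (13.8% and 27.6%). XTH7 rose from 14.9 to 177 FPKM, XTH9 from 95.9 to 344 FPKM and XTH32 from 48.1 to 88.1 FPKM. XTH21 fell from 104 to 49.1 FPKM and XTH15 from 255 to 126 FPKM. Of 121 pectin methylesterases and inhibitors 5 rose and 5 fell (4.13% each), and of 110 polygalacturonases and pectate lyases 8 rose and 6 fell (7.27% and 5.45%), shares near those of all tested loci.

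Lignin genes fell as a block of small changes. Of 14 enzymes that make the lignin monomers, 6 were listed, all lower, with log2 ratios from -0.72 to -0.39. HCT went from 276 to 168 FPKM, CAD4 from 281 to 171 FPKM, COMT1 from 403 to 264 FPKM, CYP98A3 from 113 to 68.6 FPKM, 4CL1 from 118 to 89.9 FPKM, and FAH1 from 8.33 to 5.48 FPKM. Laccases, which polymerise lignin, had 3 of 17 members lower and none higher, LAC17 falling from 9.93 to 4.15 FPKM. The xylem and secondary wall list had 2 of 26 members lower, LAC17 and the xylan gene FRA8 (21.2 to 13.4 FPKM), close to the 5.54% of all tested loci.

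Of 10 Casparian strip genes, CASP5 and ESB1 were listed, both lower; ESB1, a dirigent protein that organises strip lignin, stood at 43.7 and 31.9 FPKM. AT2G16385, left out of that list over its name, was higher (77.4 to 111 FPKM). Of 20 suberin genes 6 were higher and none was lower in its own locus. FACT, which makes suberin-linked caffeates, rose from 11.4 to 34.4 FPKM. The fatty acyl reductases FAR1 and FAR5, which make suberin alcohols, rose from 14.8 to 32.7 FPKM and from 31.7 to 50.5 FPKM. GPAT5, an acyltransferase, CYP86A1, a fatty acid hydroxylase, and MYB93, a factor of the endodermis, had log2 ratios of 0.81, 0.49 and 0.68. MYB92 was in a merged locus that fell from 47.0 to 30.8 FPKM.

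Phloem and cambium genes rose in 7 of 16 members, with 1 lower. WOX4, the homeobox factor that maintains cambial divisions, rose in both of its loci, the larger from 10.0 to 43.1 FPKM. PXY, its upstream receptor kinase, went from 5.23 to 7.42 FPKM, and ANT, an AP2-type growth factor of the cambium, from 10.8 to 30.6 FPKM. Of the phloem genes, PP2-A1, a sieve tube lectin, rose from 23.1 to 60.5 FPKM. SEOR1, a sieve element filament protein, OPS, a protophloem regulator, and APL, the phloem identity factor, had log2 ratios of 0.85, 0.79 and 0.56. SWEET11, a sucrose exporter, fell from 9.95 to 3.94 FPKM. Outside the list and picked after their values were seen, CLE44, a peptide ligand of PXY, rose from 10.5 to 18.8 FPKM, and SEOa, the companion of SEOR1, from 3.42 to 10.7 FPKM.

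Low oxygen genes had the highest share of members that rose: 8 of 15, or 53.3%, all higher, with a median log2 ratio of 1.71 against 0.74 for all loci that rose. The fermentation enzymes ADH1 and PDC1, which turn pyruvate into ethanol, went from 4.69 to 37.1 FPKM and from 4.78 to 16.2 FPKM. The lactate dehydrogenase AT4G17260 went from 33.3 to 46.3 FPKM. HB1, a haemoglobin that scavenges nitric oxide, rose from 40.1 to 139 FPKM. PCO1, a plant cysteine oxidase through which oxygen is sensed, rose from 6.48 to 24.9 FPKM, and its relative PCO2 lies in a merged locus that rose from 6.87 to 18.8 FPKM. HRA1, a repressor of this response, LBD41 and SAD6 went from 2.55 to 6.13, from 9.42 to 28.9 and from 7.31 to 23.0 FPKM. The other members of the list, among them HRE1, HRE2, SUS1 and SUS4, were not listed.

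ERF-VII factors, which act when oxygen is low, bind a hypoxia-responsive promoter element. It was searched as AAACCA, any 3 bases, then GC, on both strands. This form leaves the middle bases open, so a match need not be the element itself, and binding was not tested. In the 250 bases upstream of each annotated start, a match was found for ADH1 alone among the 8 listed members (12.5%). The shares with a match were 0.809% of 27443 protein-coding genes, 0.868% of the genes that rose and 0.195% of those that fell. The ADH1 window is shown because this gene had the largest ratio of its list. Capitals mark the match, which begins 166 bases before the annotated start.
ADH1 (TAIR10.1, chr1:28975005-28975254, plus strand): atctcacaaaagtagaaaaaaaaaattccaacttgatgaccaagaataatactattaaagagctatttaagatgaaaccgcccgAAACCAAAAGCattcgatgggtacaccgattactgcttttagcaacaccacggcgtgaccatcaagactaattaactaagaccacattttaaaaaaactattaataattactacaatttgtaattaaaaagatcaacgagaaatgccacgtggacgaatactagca

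MADS-box genes of roots and flowering had 6 of 14 members higher. Besides AGL14, AGL42 rose from 5.05 to 57.2 FPKM, SOC1 (AGL20), which promotes flowering, from 3.19 to 18.0 FPKM, AGL19 from 0.818 to 11.3 FPKM and AGL21, which acts in lateral roots, from 12.2 to 19.9 FPKM. AGL71 was listed at 0 at 4 days and at 1.09 FPKM at 8 days. FLC, the repressor of flowering and of SOC1, was lower, at 1.92 and 0.284 FPKM.

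Of 21 cytokinin genes 5 were higher and none was lower, and all 5 were type-A response regulators, which cytokinin induces and which damp its signal. ARR7 rose from 26.7 to 63.4 FPKM and ARR15 from 3.69 to 9.03 FPKM. ARR4, ARR5 and ARR9 had log2 ratios of 0.58, 0.43 and 0.50. Auxin genes gave no common direction: the conjugating enzymes GH3.1, GH3.3 and GH3.5 fell, GH3.5 from 20.4 to 7.48 FPKM, while the repressors IAA2 and IAA30 rose, IAA30 from 2.95 to 7.73 FPKM. Of the 28 auxin genes, 10.7% were lower and 7.14% higher in their own loci. AT1G14130, left out of the list over its name, was higher (7.64 to 11.4 FPKM). GH3.2 lies in a merged locus that rose by 0.33 on the log2 scale. In the jasmonate list VSP1, VSP2 and the repressor JAZ5 (1.57 to 4.85 FPKM) were higher of 18 members.

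**Figure D4:**
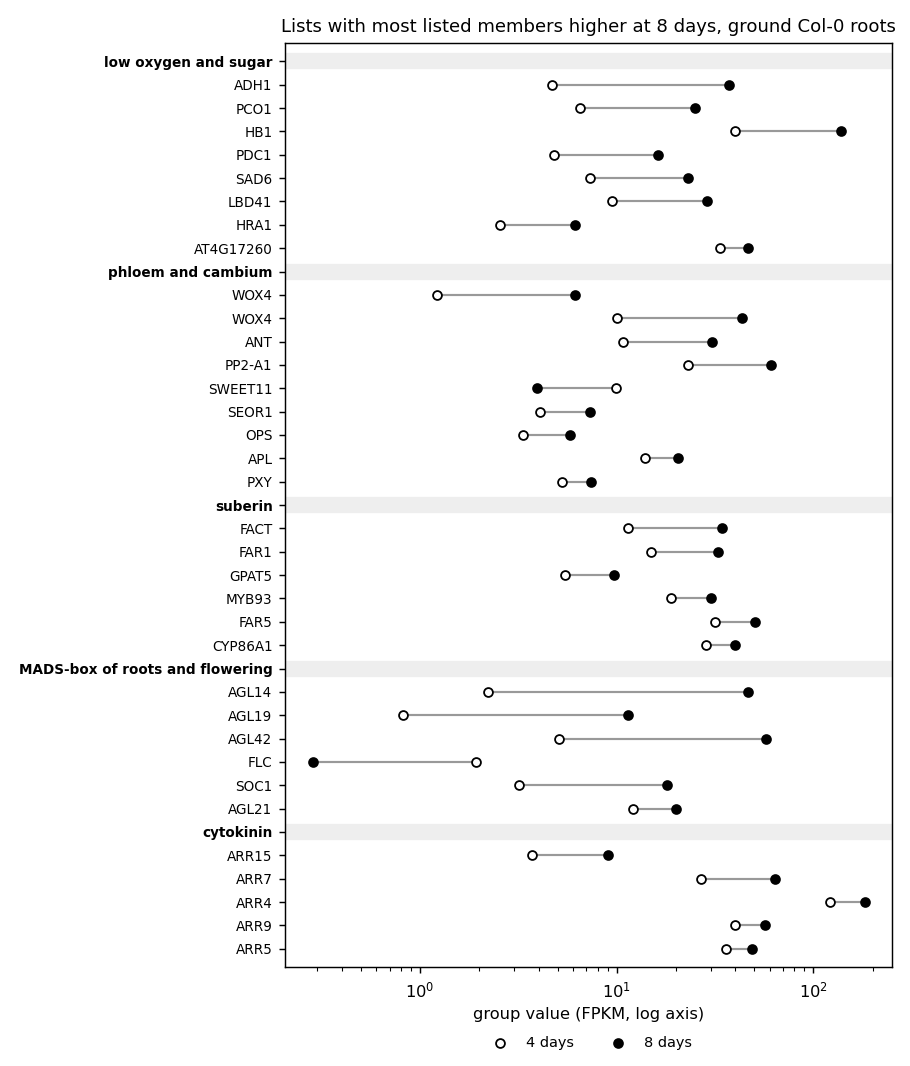
Group values in FPKM (log axis) at 4 days (open circles) and 8 days (filled circles) for listed single-gene loci of the low oxygen, phloem and cambium, suberin, MADS-box and cytokinin lists; AGL71, listed at 0 at 4 days, is not drawn. Filled circles lie to the right except for SWEET11 and FLC.

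The cell division, meristem and lateral root lists held 3, 3 and 4 listed genes. Of 43 cell division genes, CYCA1;1 (15.7 to 22.9 FPKM) and CDKB2;2 (14.6 to 23.6 FPKM) rose and SIM, an inhibitor of division in endocycling cells, fell from 189 to 146 FPKM, shares of 4.65% and 2.33% that do not exceed those of all tested loci. MAP65-3, also of the cell division list, lies in a merged locus that rose from 73.2 to 127 FPKM. Histones were higher in 5 of 47 genes with log2 ratios from 0.35 to 0.54. Outside the lists and picked after their values were seen, CYCD6;1, a cyclin of formative root divisions, rose from 5.29 to 17.2 FPKM. Of 18 meristem regulators, SCR, which patterns endodermis and stem cell niche, fell from 18.6 to 10.3 FPKM, WOX5, the quiescent centre factor, from 15.8 to 9.37 FPKM, and the peptide gene RGF3 rose from 53.7 to 94.2 FPKM. Of 18 lateral root genes, LBD16, LBD29 and the auxin importer LAX3 fell, LBD29 from 17.0 to 10.1 FPKM, and the receptor kinase HAE rose from 0.413 to 1.84 FPKM. The share lower was 11.1% of the meristem list and 16.7% of the lateral root list, against 5.54% of all tested loci. The share higher was 5.56% in each, close to the 5.69% of all tested loci.

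Specialised metabolism was uneven. Of 10 triterpene genes of the root clusters 6 were lower and none higher: the marneral synthase MRN1 went from 5.79 to 1.58 FPKM, CYP705A1 from 11.5 to 4.77 FPKM and PEN1 from 25.1 to 15.3 FPKM, and CYP705A12, CYP71A16 and THAS1 had log2 ratios of -1.03, -0.72 and -0.73. Flavonoid genes had 3 of 14 lower, with the entry enzyme CHS at 1088 and 773 FPKM, F3H at 158 and 122 FPKM and their activator MYB12 at 89.2 and 61.0 FPKM, and UGT78D1 higher. In the glucosinolate list MYB34, an activator of indole glucosinolates, rose from 81.5 to 191 FPKM, and the endoplasmic reticulum body genes NAI1 and NAI2 had log2 ratios of 0.85 and 0.51. The myrosinase TGG4 and the sulfotransferase SOT18 were lower, so 14.3% of the 21 members of that list rose and 9.52% fell. In the immunity list of 20 genes DIR1 rose, and the camalexin enzymes PAD3 (17.5 to 8.89 FPKM) and CYP71A12 (1.34 to 0.216 FPKM) fell. These are 5% higher and 10% lower, against 5.69% and 5.54% of all tested loci. None of the 19 genes of the circadian clock list was among the Cuffdiff calls.

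Markers of other tissues were counted as a check of the dissection. Of 33 photosynthesis genes, taken as markers of shoot tissue, 5 were listed, all lower at 8 days. Their summed level was 111 FPKM at 4 days and 38.4 FPKM at 8 days. RBCS3B went from 32.5 to 7.09 FPKM, RBCS2B from 11.4 to 0.636 FPKM, RCA from 35.3 to 16.4 FPKM and GAPB from 17.9 to 13.0 FPKM, beside RBCS1B above. The 3 RBCS genes are adjacent close copies. Outside the list and picked after its values were seen, the photosystem I gene PSAE-1 rose from 24.4 to 34.7 FPKM. Of 19 genes that mark seed reserves, ICL, a glyoxylate cycle enzyme, fell from 4.38 to 1.65 FPKM, and PCK1, a gluconeogenic enzyme, rose from 86.2 to 122 FPKM. The part of these tissues in the other results was not tested.

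The other 3 age comparisons listed many of the same loci. Of the 2235 loci, 924 (41.3%) were also listed for ground Sku6, 692 (31.0%) for flight Col-0 and 689 (30.8%) for flight Sku6; these are 49.3%, 51.0% and 41.8% of the lists of those comparisons. The direction was the same for 900, 664 and 629 of them. For scale, those comparisons listed 1873 of 19852, 1357 of 20007 and 1647 of 19720 tested loci, in the same order. All 4 comparisons listed 442 loci, of which 434 had the same direction throughout, 268 higher and 166 lower. No other age comparison listed 1083 loci, and 156 of these changed by 2-fold or more in ground Col-0. No test of the difference between comparisons can be made from group values.

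By list, the counts of shared members ran from nearly all to none. The 8 low oxygen genes were higher again in flight Col-0 and flight Sku6, and 7 of them in ground Sku6. ADH1 had log2 ratios of 2.98 here and of 1.95, 2.84 and 2.71 in flight Col-0, ground Sku6 and flight Sku6. Of the 9 phosphate genes, 8, 7 and 6 were lower again in that order. The suberin genes were higher again in 5, 6 and 6 of 6, with FACT at log2 ratios of 1.60 here and 2.08, 2.31 and 2.11 there, and CYP86A1 at 0.49 here and 1.21, 2.04 and 1.78 there. By contrast, none of the 6 lignin monomer genes was listed as lower in another comparison, and 4CL1 was listed as higher in flight Sku6 (log2 ratio 0.38). A gene that is not listed there may still have been lower. Of the 10 aquaporins 3, 6 and 3 were lower again, and TIP1;2 was higher in ground Sku6 (0.28). Among the triterpene genes, MRN1 and CYP71A16 were lower in ground Sku6 and higher in flight Sku6, at log2 ratios of 1.18 and 0.69 there. ESB1 was lower here and higher in all 3 others, at 0.47, 0.61 and 0.85.

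**Figure D5:**
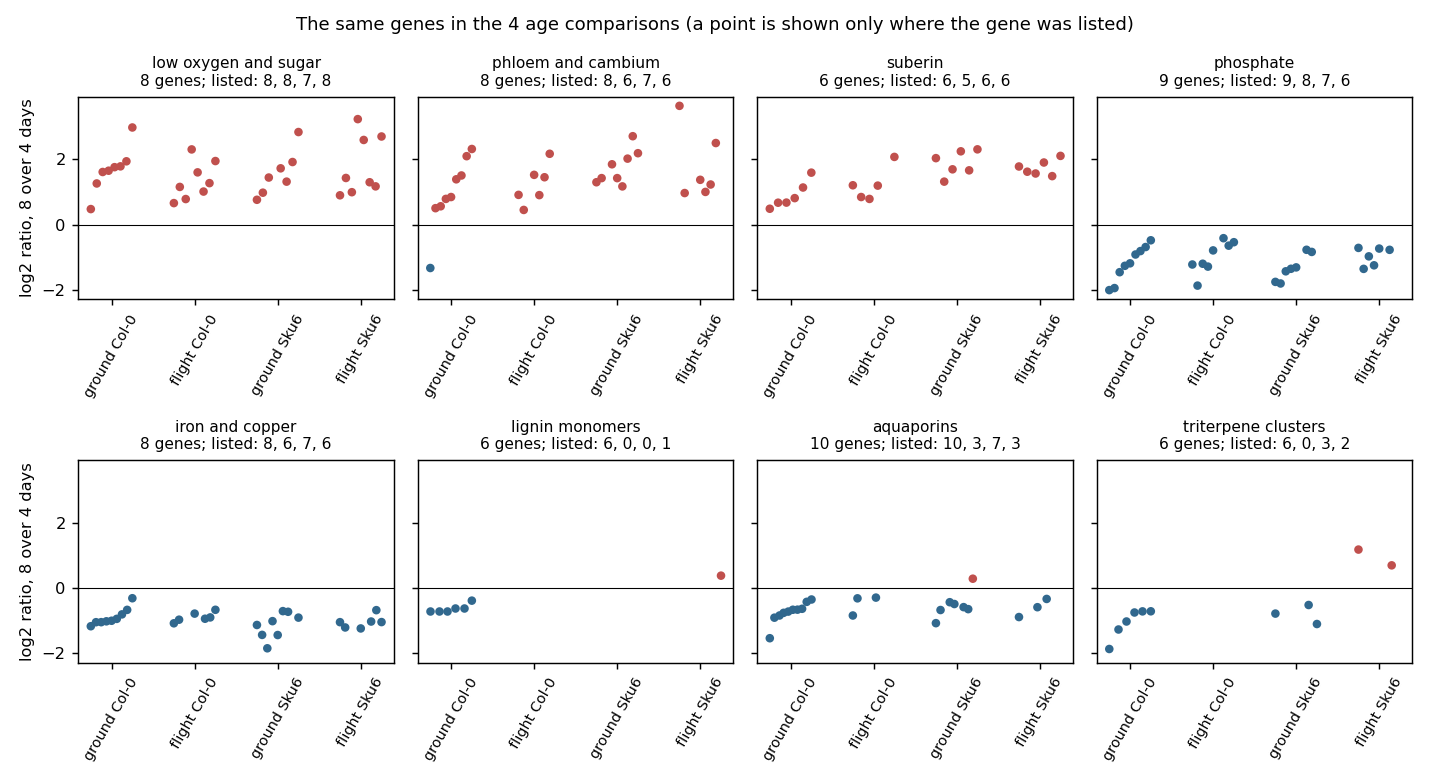
Log2 ratio, 8 over 4 days, of the listed genes of 8 lists in ground Col-0 and, where the same locus was listed, in flight Col-0, ground Sku6 and flight Sku6; red points are higher and blue points lower at 8 days, and a gene keeps its place within each column. The low oxygen and suberin panels stay above 0 in every column, and the lignin panel is empty in flight Col-0 and ground Sku6.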

How the data were processed

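RNA of 4 root samples per group was sequenced from amplified cDNA made with the SMART-Seq v4 kit, which does not mark strand, from 10 ng of total RNA, per the labels' protocols. Reads were trimmed with Trimmomatic 0.36, checked with FastQC 0.11.2, aligned with STAR 2.5.1b and processed with Picard, Cufflinks and Cuffdiff on TAIR10, per the submitters' processing notes. The deposited tables hold, per the file headers, an FPKM value for each group, a log2 fold change, a p-value, a q-value and a test statistic (a score, not used here), for loci the authors called significant. The deposited log2 column was taken with its sign turned to 8 over 4 days; it differs from the ratio of the value columns by rounding alone.

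Ratios, counts and medians were computed with Python 3.11.15, pandas 2.3.3 and NumPy 2.4.6, with no pseudocount and no test, since no value per sample is at hand. FPKM is relative to the total of a library, so an abundant gene's change moves all others. The counting back of tested loci was checked on simulated tables.

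Of the 2235 loci, 2075 are single genes of the RefSeq annotation (TAIR10.1), 125 are merged, 28 have no name and 7 have a name that is not in that annotation. Without strand, reads of overlapping genes cannot be told apart. The members and lists were chosen with earlier results of these data known. Of 553 list entries 11 were dropped because code and annotation name disagreed. Named were the 12 highest and 12 lowest ratios, the 10 largest rises and falls in FPKM, and listed members of each list; other genes are marked as picked after their values were seen.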

Additional observations from a re-analysis of the deposited data

How the results depend on the processing

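With a q-value of at most 0.01 in the authors' deposited table, 706 loci were higher and 712 lower at 8 days, so the excess of higher loci turned into a slight excess of lower ones. An absolute log2 ratio of at least 1 left 353 higher and 225 lower. Requiring 5 FPKM in the higher group left 1027 and 1018, and leaving out merged loci left 1068 and 1042. The share of shared loci with the same direction was 96.0% for flight Col-0, 97.4% for ground Sku6 and 91.3% for flight Sku6, and stayed between 91.1% and 100% with merged loci left out or with an absolute log2 ratio of at least 1 in both. Of 52 counts by list and direction, 26 moved by over 1.5 times when a log2 ratio of at least 1 was asked for, 6 with the 5 FPKM minimum and 1 when merged loci were kept. Adding 1 FPKM to both groups moved 3 of 43 named folds by over 1.5 times: the log2 ratio became 5.10 for VSP2 (from 5.97), -4.06 for AT2G04460 (from -4.86) and -2.66 for RBCS1B (from -3.40). No paired analysis was possible because the tables hold 1 value per group. Leaving out each replicate was not run for the same reason. Depth and spread between samples are unknown, so the precision of a single ratio cannot be given.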

Other observations

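Some listed genes of ground Col-0 roots had the opposite direction in other age comparisons; they were picked after their values were seen, and the differences were not tested. The amino acid exporter UMAMIT14 was lower here (24.0 to 12.1 FPKM) and higher in flight Col-0, ground Sku6 and flight Sku6, at log2 ratios of 0.65, 0.49 and 0.74. The dirigent-like gene AT2G39430 was lower here (95.7 to 60.4 FPKM) and higher there, at 1.23, 0.52 and 1.05. APR1, which reduces sulfate, had a log2 ratio of -0.38 here and of 0.61, 0.45 and 1.39 there. SWEET11 was lower here and higher in ground Sku6 (6.20 to 15.3 FPKM) and flight Sku6 (1.17 to 14.7 FPKM).

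Of the 247 pairs of adjacent protein-coding genes that were both listed, 150 changed in the same direction and 97 in opposite directions. Of all listed protein-coding genes, 1013 rose and 1023 fell. Some pairs, such as VSP1 and VSP2, are close copies that may share reads, and the excess of the same direction was not tested. AT3G44970, a cytochrome P450, fell from 9.48 to 0.543 FPKM beside AT3G44960, which had a log2 ratio of 2.08. There were 11 loci listed at 0 at 4 days, among them AT5G59305, a CLE-like peptide gene at 13.9 FPKM at 8 days, and AGL79 at 2.91 FPKM. Apart from VSP1 and VSP2, the genes named in this paragraph were picked after their values were seen.

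Of 344 genes annotated as ribosomal proteins, 20 were higher (5.81%) and 6 lower (1.74%), with log2 ratios between -0.45 and 0.60; the higher share is close to the 5.69% of all tested loci. Heat shock proteins were lower in 5 and higher in 1 of 80 (6.25% and 1.25%), with HSP81-3 at 189 and 118 FPKM and HSP18.2 at 7.27 and 23.5 FPKM. UDP-glycosyltransferases were lower in 10 and higher in 2 of 131 (7.63% and 1.53%). Both lower shares are near the 5.54% of all tested loci.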
